A study of Homo sapiens with 10 samples.

Results

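Tumor sphere (TS) cells of the human lung cancer line H460, grown in suspension, were compared with H460 cells that grew attached to plates (2D cells). The libraries were chosen by their labels. The 1 library labelled CTC and sphere culture was set against the 3 libraries of parental H460 cells in 2D culture, 4 of the 10 libraries of the series. The series comes from a study of lung cancer relapse in distant organs, which asked what drug-resistant cells and TS cells share. Its other libraries are 4 of drug-resistant H460 cells, which were not used here beyond 1 alternative fit, and 1 2D and 1 TS library of A549, a lung adenocarcinoma line. H460 and A549 TS cells were kept in RPMI with EGF, bFGF and the supplement B27 on plates coated with poly-HEMA, which prevents attachment, and they were passaged in suspension before RNA was taken. The 2D cells of both lines grew in medium with serum. Poly(A) RNA was prepared with the Illumina TruSeq kit, and the labels give no drug and no genetic change for these libraries. TS cells are a culture of an established line and not cells from blood. Medium and attachment differ together between the 2 cultures and cannot be told apart. The TS culture has 1 library per line, and the labels do not say whether the 3 2D libraries are separate cultures, so that every p-value below measures the spread between these libraries alone.

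Attached cells hold to a matrix of collagens, laminins and glycoproteins through integrins, and attachment feeds signals to the actin cytoskeleton and to the co-activators YAP and TAZ, which work with TEAD factors on DNA. Cells take up cholesterol with the lipoproteins that serum supplies, or make it from acetyl-CoA by way of mevalonate and squalene. When sterols run low in the membrane of the endoplasmic reticulum, SREBP factors are released from it and switch on the genes of cholesterol synthesis and uptake.

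The reads counted on genes numbered 73644667, 65670034 and 73459930 in 2D replicates 1, 2 and 3 and 62073451 in the TS library, and 64454873 and 69853644 in the A549 2D and TS libraries. Values are given as FPKM, which scales the fragments of a gene by transcript length and library size, and always in the order of 2D replicates 1, 2 and 3. Among 11626 genes with a mean FPKM of at least 1 over the 4 H460 libraries, called the counted genes below, 337 were more than 2-fold apart between 2D replicates 1 and 2, 763 between 1 and 3 and 530 between 2 and 3. The TS library was more than 2-fold apart from 2D replicates 1, 2 and 3 in 464, 615 and 792 genes. Replicate 3 thus stood apart from the other 2D libraries in more genes than the TS library stood apart from replicate 1. It also had the highest level of many immediate early genes, which respond to a stimulus within minutes. FOS, a subunit of the AP-1 factor, had FPKM values of 5.08, 1.56 and 169.8 in 2D cells and 9.99 in TS cells, and EGR1, a zinc finger factor, had 6.4, 0.779 and 73.7 and 15.1. The numbers of genes called and the counts and medians of the gene lists were therefore also computed without each 2D library, and replicate 2, whose library name has another form than the other 3, was among those left out.

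Marker genes were examined before the comparison. The keratins of simple epithelia were abundant in all 4 libraries, with FPKM values of 447, 398 and 379.7 in 2D cells and 423 in TS cells for KRT8 and of 349, 279.6 and 233 and 341 for KRT18. Some other epithelial markers were nearly absent. EPCAM, an adhesion protein of epithelia, lay between 0.0919 and 0.114, and E-cadherin (CDH1) was at 0 in 3 of the 4 libraries and at 0.0023 in the other. All 8 markers of lung adenocarcinoma and alveolar cells, among them NKX2-1 and the surfactant genes, stayed under an FPKM of 1 in every H460 library, and 4 of them were at 0 in all. Their summed FPKM was 0.0572, 0.0917 and 0.0556 in 2D cells and 0.0454 in TS cells, with NAPSA the most abundant. Neuroendocrine markers summed to 2.62, 1.51 and 1.23 in 2D cells and to 4.60 in TS cells. The most abundant of these 7, the granule protein gene CHGA, had 1.51, 0.238 and 0.303 in 2D cells and 2.2 in TS cells, while NEUROD1 was at 0 in all 4 libraries. Leukocyte markers gave sums of 17.9, 25.1 and 26.4 in 2D cells and 30.01 in TS cells, with the lysosomal protein gene CD68 the most abundant of the 8 and PTPRC, CD3E and MS4A1 at 0 throughout. CD14 of the same list had RNA too, with a log2(FPKM + 1) of 2.84 as the mean of the 2D libraries and 3.28 in TS cells. For 6 endothelial markers the sum was 0.0110, 0.0215 and 0.0451 in 2D cells and 0.484 in TS cells, mostly from KDR, and PECAM1, CDH5, TEK and CLDN5 were at 0. Of 6 erythroid markers, which summed to 7.60, 2.55 and 2.80 in 2D cells and 5.54 in TS cells, HBA1 was the most abundant and 3 were at 0. HBA1 and HBA2 have nearly the same sequence, and the division of reads between them is uncertain. The 8 fibroblast markers summed to 14.9, 26.5 and 32.5 in 2D cells and 29.6 in TS cells, with COL3A1 the most abundant and COL1A2, PDGFRA and FAP at 0. Of these, the collagen gene COL3A1 fell and the matrix proteoglycan gene LUM, with 0.237, 2.76 and 1.57 in 2D cells and 26.6 in TS cells, rose.

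TS cells had more RNA of 19 of 20 enzymes of cholesterol synthesis, of the fibrinogen chains FGA and FGG, of ceruloplasmin and complement C3, and of the interleukins IL1A and IL1B than 2D cells. They had less RNA of some matrix, surface and adhesion proteins and of 5 of 18 YAP/TEAD target genes. RNA of most DNA replication and mitosis genes lay inside the range of the 2D libraries, and the list means in TS cells lay between that of replicate 3 and those of replicates 1 and 2. A gene was called where its log2(FPKM + 1) in the TS library was more than 1 above, or more than 1 below, that of each of the 3 2D libraries. By this rule 126 genes (1.08% of the counted genes) were called higher and 125 (1.08%) were called lower. That near balance depends on the rule, since a pseudocount of 0.1 in place of 1 gave 151 higher and 239 lower genes and the mean of the 2D libraries as control gave 184 and 237. The TS library was above the 2D range in 2131 genes (18.3%) and below it in 2326 (20%), by any amount, and inside it in 7169. The count of each gene list below is to be read against these shares. The lists and their members were chosen with earlier results of these data known. A list count above these shares therefore describes the list and is no independent test of it. The quasi-likelihood test of edgeR, at a Benjamini-Hochberg adjusted p under 0.05, passed 84 genes (0.723%) that were higher and 86 (0.740%) that were lower. Both rules held for 83 higher and 80 lower genes, and only of such genes are the words rose and fell used below. edgeR takes the spread from the 2D libraries and assumes that the TS library varies like them, and a gene that did not pass was not shown to be equal in the 2 cultures. An exact permutation test of 1 library against 3 has 4 assignments and cannot give a p below 0.25. In bulk RNA, a change in the share of some cells and a change in the RNA of each cell cannot be told apart.

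Among the genes called, 39 higher and 28 lower genes were more than 4-fold from the nearest 2D library. Many were switched from or to a level near 0, since 47 of the genes called higher had a 2D mean under an FPKM of 1 and 54 of those called lower had a TS value under 1. Where an FPKM of at least 1 was asked for in 2 of the 4 libraries, 88 genes were called higher and 126 lower, since genes silent in 2D cells then drop out. Leaving out a 2D library can only add genes under this rule. Without replicate 3, 145 genes were called higher and 146 lower. Without replicate 2, which leaves libraries with 1 form of name, they were 144 and 147, and without replicate 1 they were 160 and 213. edgeR passed 123 higher and 173 lower genes without replicate 1. At the threshold, ACOX2, PLAC4 and CHPF were called higher with differences of 1.001, 1.004 and 1.015 from the nearest 2D library in log2(FPKM + 1), and MRPS2 and NEDD4L were not, with 0.993 and 0.977. On the other side, TMCC2, FAM20C and S100A4 were called lower with differences of -1.002, -1.007 and -1.029, and DSE, MFGE8 and BEGAIN were not called, with -0.989, -0.987 and -0.986.

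**Figure D1:**
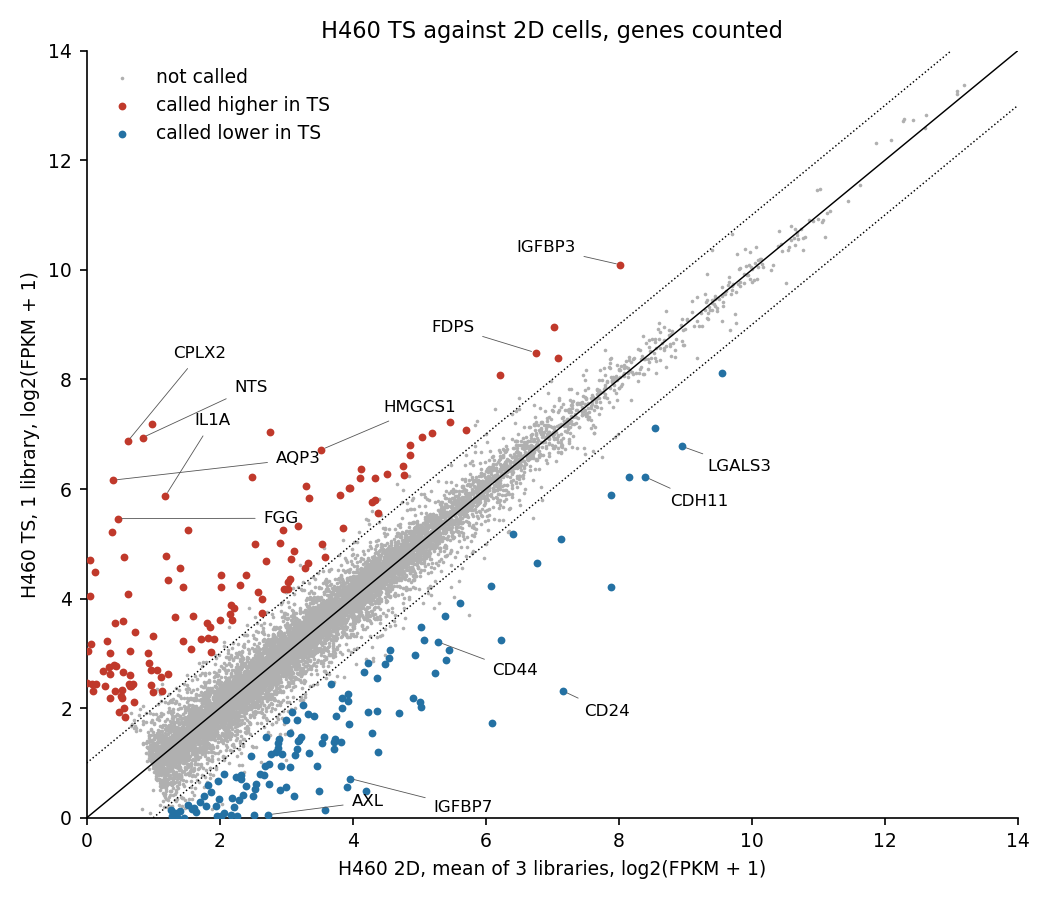
Each point is a counted gene, with the mean log2(FPKM + 1) over the 3 2D libraries on the x axis and the value of the TS library on the y axis. The solid line marks equal values and the dotted lines a 2-fold difference from the 2D mean, and the genes called (1.08% in each direction) are coloured, with CPLX2, NTS and AQP3 among the points farthest above and CD24 among those farthest below.

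Enzymes of cholesterol synthesis were higher at nearly every step from acetyl-CoA to cholesterol. Of 20 genes in the list, 19 were called higher, against 1.08% of all counted genes, and 16 of these also passed the edgeR test. The summed FPKM of the list was 444, 591 and 366 in 2D cells and 1615 in TS cells. ACAT2, which joins acetyl-CoA units at the start, had FPKM values of 28.9, 41.7 and 27.2 in 2D cells and 122 in TS cells. HMGCS1, which makes HMG-CoA (NCBI Gene 3157, chr5:43287470-43313412, GRCh38.p14), had 10.8, 13.4 and 7.99 in 2D cells and 104 in TS cells. The 2D libraries stayed close together and the TS library lay far above all of them. The 2D mean was 10.7 ± 2.73 (SD, n = 3), and the rise was 9.7-fold, with an edgeR log2 fold change of 3.34 (standard error 0.33, Benjamini-Hochberg adjusted p = 0.00177).

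The next enzymes turn mevalonate into the units from which squalene is built. Mevalonate kinase (MVK) had FPKM values of 4.07, 6.87 and 4.24 in 2D cells and 16.5 in TS cells. Phosphomevalonate kinase (PMVK), the following step, had 36.1, 46.9 and 32.9 in 2D cells and 32.1 in TS cells. PMVK was the 1 gene of the list that was not called, and its TS value lay below the 2D range. MVD, the decarboxylase after it, rose from 5.23, 8.99 and 6.51 to 37.1, and the isomerase IDI1 from 13.5, 23.6 and 9.5 to 64.1. FDPS, which joins the units to farnesyl diphosphate, was the most abundant gene of the list, with 92.9, 149.9 and 86.8 in 2D cells and 359 in TS cells. FDPS was called higher, and its edgeR log2 fold change of 1.73 did not pass (Benjamini-Hochberg adjusted p = 0.0581), nor did those of MVK and EBP (adjusted p = 0.0757 and 0.0789 by edgeR).

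Squalene is closed to a sterol ring and trimmed by the enzymes at the end of the path. Squalene epoxidase (SQLE), a further control point, rose from 16, 16.7 and 8.17 to 58.6. MSMO1, which removes methyl groups from the ring, rose from 8.9, 16 and 4.64 to 65.8, the largest rise of the list after HMGCS1 in log2(FPKM + 1), with a difference of 2.76 from the 2D mean. The reductase gene DHCR7 rose from 26.2, 30.3 and 27.4 to 110.3 (edgeR, Benjamini-Hochberg adjusted p = 0.0154). TM7SF2, a sterol reductase with low RNA in 2D cells, rose from 0.387, 0.444 and 0.881 to 4.44. The median log2 difference of the list from the 2D mean was 1.84, the SD of the list medians of the 2D libraries was 0.31, and the median over all counted genes was 0.01. In A549 cells all 20 genes were higher in the TS than in the 2D library, 11 of them by more than 2-fold, with a median of 1.03 against -0.08 for all counted genes. HMGCS1 had 37.1 in the A549 2D library and 87.6 in the TS library, and DHCR7 had 35.9 and 71.2.

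**Figure D2:**
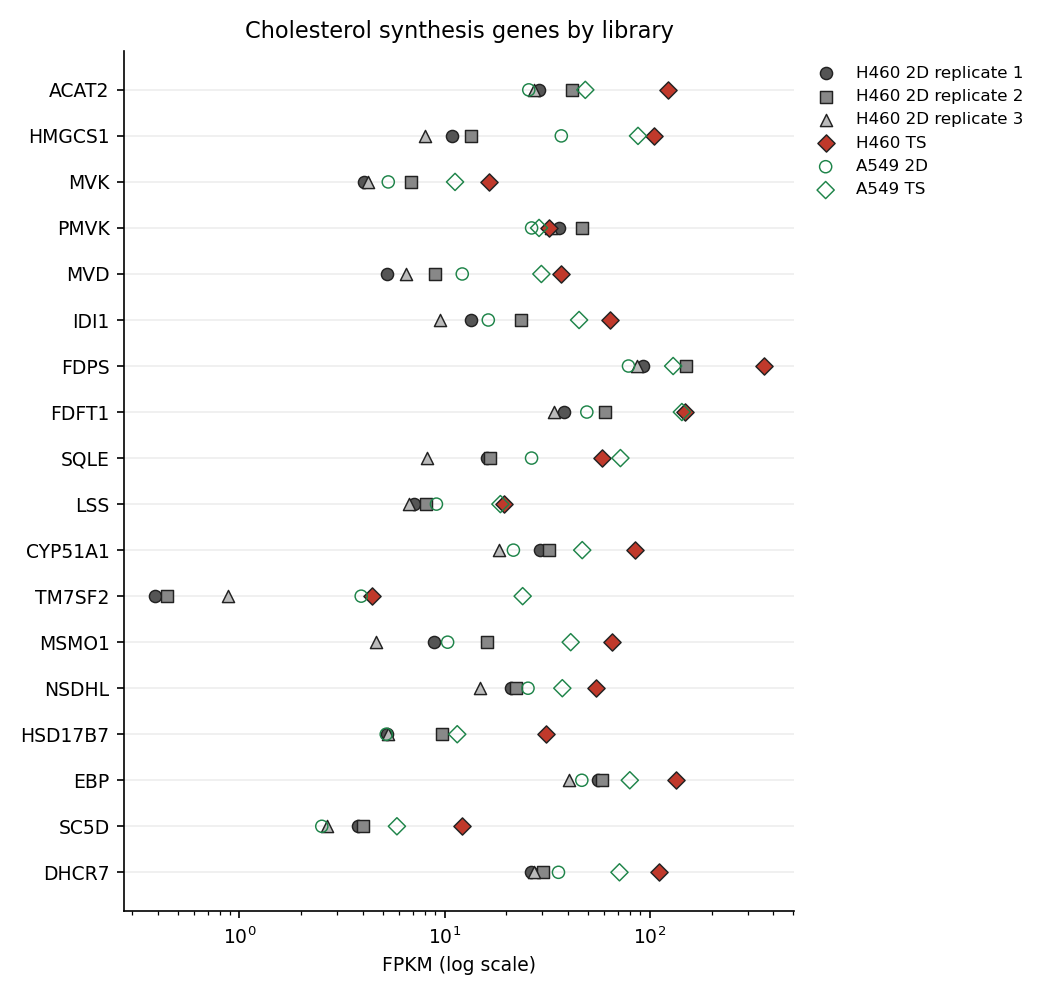
FPKM on a log scale of 18 cholesterol synthesis genes, from the start of the pathway at the top to DHCR7 at the bottom, with 1 symbol for each library of H460 and A549. The red diamonds of H460 TS cells lie to the right of the 3 grey 2D symbols for every gene but PMVK, whose red diamond lies at 32.1, left of them.

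Promoters of these genes are printed here because most members of the list moved together. RefSeq windows of 300 bases on GRCh38.p14, from 250 bases before to 50 after a start set by the reference, were found for 15 of the 20 genes. That start is the outer end of the gene in 11 of the 15 and lies inside the gene in MVK, PMVK, CYP51A1 and DHCR7, by 522, 5939, 326 and 650 bases. They were searched on both strands for 3 motifs. CCAAT, the box bound by NF-Y, was found in 12 of the 15 windows (80.0%), against 3384 of the 9033 windows of counted genes (37.5%) and 9747 of all 27305 windows (35.7%). GGGCGG, the GC box bound by SP1, was in 14 of the 15 (93.3%), against 71.7% of the windows of counted genes and 44.6% of all. TCACNCCAC, a form of the sterol regulatory element bound by SREBP, was in none of the 15, against 0.996% of the windows of counted genes and 1.15% of all. At shares this low, 15 windows cannot show whether the form is missing more often than elsewhere. Other forms of the element were not searched for. CCAAT was absent from the windows of IDI1, CYP51A1 and PMVK. Of these, IDI1 and CYP51A1 were called higher, CYP51A1 with FPKM values of 29.1, 32.4 and 18.4 in 2D cells and 85 in TS cells, and PMVK was not. The windows below are those of HMGCS1 (chr5:43313363-43313662, minus strand), MVK (chr12:109573544-109573843, plus strand), NSDHL (chrX:152830813-152831112, plus strand), CYP51A1 (chr7:92134428-92134727, minus strand), PMVK (chr1:154936670-154936969, minus strand) and SREBF2 (chr22:41832855-41833154, plus strand), each written 5′ to 3′ in the direction of its gene. Capitals mark CCAAT, its reverse complement ATTGG and, in SREBF2, the 1 match to TCACNCCAC, which overlaps no CCAAT box. HMGCS1 holds 2 CCAAT boxes, MVK 5, NSDHL 5 with 1 overlap of opposite strands, and SREBF2 1. A match describes the letters of a window and is not a site that was measured.
HMGCS1: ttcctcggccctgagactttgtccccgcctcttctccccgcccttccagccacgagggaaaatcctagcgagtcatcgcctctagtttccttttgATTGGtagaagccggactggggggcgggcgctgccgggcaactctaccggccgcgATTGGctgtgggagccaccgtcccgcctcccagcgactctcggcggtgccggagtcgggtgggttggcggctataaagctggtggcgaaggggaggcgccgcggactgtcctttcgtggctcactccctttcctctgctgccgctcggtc
MVK: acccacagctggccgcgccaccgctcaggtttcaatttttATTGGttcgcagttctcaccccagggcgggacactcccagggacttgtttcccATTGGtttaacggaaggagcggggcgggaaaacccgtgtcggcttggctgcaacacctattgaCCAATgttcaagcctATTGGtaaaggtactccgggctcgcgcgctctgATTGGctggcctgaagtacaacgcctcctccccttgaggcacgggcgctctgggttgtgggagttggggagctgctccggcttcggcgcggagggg
NSDHL: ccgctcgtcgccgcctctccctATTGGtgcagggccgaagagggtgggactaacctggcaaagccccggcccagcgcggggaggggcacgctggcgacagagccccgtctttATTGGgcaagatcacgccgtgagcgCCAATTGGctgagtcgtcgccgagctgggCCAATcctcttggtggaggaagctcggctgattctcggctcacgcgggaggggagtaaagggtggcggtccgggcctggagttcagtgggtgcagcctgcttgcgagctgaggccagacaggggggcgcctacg
CYP51A1: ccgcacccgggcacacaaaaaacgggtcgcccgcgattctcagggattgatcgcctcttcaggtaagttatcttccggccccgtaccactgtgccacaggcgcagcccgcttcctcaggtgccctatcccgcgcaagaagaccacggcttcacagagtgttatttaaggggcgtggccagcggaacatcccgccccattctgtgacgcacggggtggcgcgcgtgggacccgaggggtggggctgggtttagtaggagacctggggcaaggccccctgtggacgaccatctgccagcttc
PMVK: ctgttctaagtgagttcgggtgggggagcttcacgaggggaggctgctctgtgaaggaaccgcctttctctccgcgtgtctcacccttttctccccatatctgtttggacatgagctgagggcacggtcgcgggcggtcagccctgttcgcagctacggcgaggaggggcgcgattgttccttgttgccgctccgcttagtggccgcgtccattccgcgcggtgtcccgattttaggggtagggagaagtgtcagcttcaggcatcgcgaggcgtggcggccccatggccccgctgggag
SREBF2: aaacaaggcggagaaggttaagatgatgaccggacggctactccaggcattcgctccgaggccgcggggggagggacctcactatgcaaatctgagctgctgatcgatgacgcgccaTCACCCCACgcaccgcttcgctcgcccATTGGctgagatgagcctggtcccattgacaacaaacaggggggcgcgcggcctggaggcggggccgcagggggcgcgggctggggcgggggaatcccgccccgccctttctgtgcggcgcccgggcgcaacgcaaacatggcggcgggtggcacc

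The list of sterol sensing and uptake also holds LPIN1, a phosphatidate phosphatase. It had 3 of 15 counted members called higher (against 1.08% of all counted genes) and 10 above the 2D range (against 18.3% of all), with a median log2 difference of 0.45. INSIG1, which holds SREBP in the endoplasmic reticulum, had 8.17, 25.9 and 13.9 in 2D cells and 64.3 in TS cells. LPIN1 had 6.42, 7.72 and 6.48 and 17.2. Their edgeR adjusted p-values, after Benjamini-Hochberg adjustment, were 0.133 and 0.0704, so that both passed the fold rule alone. SREBF2, which encodes the SREBP of cholesterol synthesis and whose promoter is printed above, had 17.7, 19 and 29.4 in 2D cells and 37.6 in TS cells and was not called. Its paralog SREBF1 stayed inside the 2D range, with 19.7, 24.4 and 43.6 and 22.1. The scavenger receptor gene SCARB1 was the most abundant of the list, with 109, 93.5 and 115 in 2D cells and 144 in TS cells. In the 12 windows found for this list, CCAAT was present in 5 (41.7%), GGGCGG in 10 (83.3%) and TCACNCCAC in 1 (8.33%), that of SREBF2. Of the genes induced by LXR, which export sterols, 3 of 9 were counted, none was called, and the median log2 difference was -0.14.

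Among 21 counted genes of fatty acid synthesis and desaturation, 2 were called higher (against 1.08% of all counted genes) and 15 lay above the 2D range (against 18.3% of all), with a median log2 difference of 0.51. ACSS2, which makes acetyl-CoA from acetate, rose from 5.69, 9.42 and 9.78 to 39 (edgeR, Benjamini-Hochberg adjusted p = 0.0207), and in A549 cells it had 7.85 in the 2D and 22.1 in the TS library. The desaturase gene SCD had 119, 147 and 139.6 in 2D cells and 336 in TS cells and passed the fold rule alone. Fatty acid synthase (FASN) was above the 2D range without being called, with 64.4, 33.5 and 82.3 in 2D cells and 143 in TS cells.

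Many genes with large rises outside the lipid lists had little RNA in 2D cells. AQP3, a channel for water and glycerol (NCBI Gene 360, chr9:33441160-33447593), had FPKM values of 0.467, 0.278 and 0.227 in 2D cells and 70.7 in TS cells (edgeR log2 fold change 7.73, standard error 0.38, Benjamini-Hochberg adjusted p = 5.31e-05). It was the 1 gene called in a list of 9 counted aquaporin and ion transport genes, whose median log2 difference was 0.01 and whose most abundant gene, the sodium pump subunit ATP1B3, had 133, 209 and 112 and 106. CPLX2, a complexin that acts in vesicle release, rose from 1.02, 0.0672 and 0.665 to 116. HGD, an enzyme of tyrosine breakdown, rose from 0.24, 0.344 and 0.338 to 36.4. For all 3 genes the 2D libraries stayed near or under an FPKM of 1. TC2N rose from 0.0154, 0.0523 and 0.0466 to 25.1, the chloride transporter gene SLC26A9 from 0.0461, 0.0562 and 0.0407 to 7.98 and the atypical kinase gene MAPK4 from 0.0204, 0.00539 and 0.00643 to 7.24. These 6 genes were higher in A549 TS than in A549 2D cells too, with 1.28 and 102 for AQP3 and 0.145 and 11.3 for TC2N.

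Other genes of this group were called in H460 cells and had little RNA or a smaller difference in A549 cells. NTS, the precursor of the peptide neurotensin, rose from 0.25, 1.57 and 0.786 to 122 in H460 cells and had 12.3 and 16.4 in A549 2D and TS cells. Its receptor gene NTSR1 fell from 5.35, 4.76 and 7.21 to 0.536 in H460 cells (edgeR, Benjamini-Hochberg adjusted p = 0.0107). GJA5, a gap junction protein, had 4.48, 0.0347 and 0.35 in 2D cells and 144 in TS cells. The 2D libraries were far apart for GJA5, and its edgeR adjusted p was 0.0782 after Benjamini-Hochberg adjustment, so that it passed the fold rule alone. HVCN1, a proton channel, rose from 0.044, 0 and 0.079 to 15.6, and the chitinase-like CHI3L2 from 0.212, 0.791 and 0.475 to 26.1. CYB5R2, a cytochrome b5 reductase, rose from 0.498, 0.716 and 0.405 to 16. NPTX2, a neuronal pentraxin, rose from 3.86, 1.31 and 1.09 to 36.9, and the calcium-binding TESC from 7.51, 3.55 and 3.5 to 73.5. LCN1, a lipocalin, had 2.52, 6.44 and 10.7 in 2D cells and 131 in TS cells, and PPIAP46, a pseudogene of PPIA, had 0.211, 0 and 0.0641 and 21.5. LCN1 and PPIAP46 share sequence with other genes, and how shared reads were counted is not stated, which leaves their levels uncertain.

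Acute phase and complement genes divided between a few that rose and many without RNA. Of 20 genes, 9 were counted, 5 were called higher and passed edgeR (against 1.08% and 0.723% of all counted genes), 1 was called lower (against 1.08% of all), and 10 stayed under an FPKM of 1 in all 4 libraries. Where an FPKM of at least 1 was asked for in 2 of the 4 libraries, 2 were called higher, since the others are near 0 in 2D cells. The median log2 difference was 1.94 over the 9 counted genes and 0.18 with that filter. The filter on the mean admits genes that are high in the TS library alone, and the median of 1.94 rests on them. FGG, the gamma chain of fibrinogen (NCBI Gene 2266, chr4:154604136-154612656), rose from 0.321, 0.33 and 0.499 to 43 (edgeR log2 fold change 6.80, standard error 0.42, Benjamini-Hochberg adjusted p = 0.000122). The neighbouring alpha chain gene FGA had a count of 0 in each 2D library and of 729 in the TS library, an FPKM of 4.5. The beta chain gene FGB stayed under an FPKM of 1, with 0.0201, 0.00744 and 0.027 in 2D cells and 0.288 in TS cells. Ceruloplasmin (CP), a copper-carrying ferroxidase, rose from 0.149, 0.311 and 0.598 to 10.8, and complement C3 from 2.76, 0.445 and 1.35 to 19.3. CD55, which shields cells from complement, rose from 111, 187 and 104 to 498. SERPINA3, a protease inhibitor, was listed at 0 in each 2D library and at 3.55 in TS cells, and with its mean FPKM under 1 it was not counted. In A549 cells CP had 9.64 in the 2D and 157 in the TS library, and SERPINA3 had 0.57 and 89.6.

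Of 19 counted NF-kappaB targets, cytokines and chemokines, 2 were called, both higher (against 1.08% of all counted genes), and the median log2 difference was 0.41. IL1A and IL1B, the 2 agonists of the interleukin-1 receptor, rose from 2.42, 0.841 and 0.86 to 57.6 and from 0.624, 0.137 and 0.0266 to 8.41 (edgeR, Benjamini-Hochberg adjusted p = 0.00156 and 0.0345). Other members were abundant in both cultures. The chemokine gene CXCL1 stayed inside the 2D range, with 180.4, 126 and 115 in 2D cells and 141 in TS cells, and IL6 had 60.3, 72.9 and 108 and 109. PTGS2, the inducible cyclooxygenase, rose from 0.646, 0.221 and 0.511 to 4.05, and INHBA, a subunit of activin, from 0.444, 0.241 and 0.162 to 3.54. Among 11 glucocorticoid-induced genes, with a median of 0.40, the factor CEBPD was the 1 gene called and rose from 4.1, 3.64 and 3.26 to 13.2. The most abundant gene of that list, the phosphatase DUSP1, had 29.1, 54.9 and 83.5 in 2D cells and 26.5 in TS cells.

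A few matrix genes were called lower. Among 17 counted matrix glycoproteins and proteoglycans, 3 were called lower and 1 higher (against 1.08% of all counted genes each) and 9 lay below the 2D range (against 20% of all), with a median log2 difference of -0.55. The summed FPKM of the list, 1514, 1424 and 2728 in 2D cells and 1564 in TS cells, stayed inside the 2D range. Without replicate 2, or with a pseudocount of 0.1 in place of 1, 5 were called lower, and against the mean of the 2D libraries 7. IGFBP7, a secreted protein that binds matrix and growth factors, fell from 14.4, 14.7 and 14.6 to 0.644 (edgeR, Benjamini-Hochberg adjusted p = 0.00227). Its 3 2D values were nearly equal. OLFML3, a secreted olfactomedin-like protein, fell from 12.3, 12.1 and 18.6 to 0.479, and EFEMP1, a fibulin, was called lower with 168, 315 and 435 in 2D cells and 73.3 in TS cells. All 3 were lower in A549 TS than in A549 2D cells as well, IGFBP7 with 17.4 and 2.11 and EFEMP1 with 15.5 and 0.928. The most abundant gene of the list, TGFBI, stayed inside the 2D range, with 569.8, 678 and 928 in 2D cells and 611 in TS cells. Fibronectin (FN1) did too, with 467, 171 and 911 and 611.

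Of 13 counted collagens and laminins, 2 were called lower (against 1.08% of all counted genes), 6 were below the 2D range (against 20% of all) and none was above it (against 18.3% of all), with a median of -0.33 beside an SD of 0.33 between the 2D libraries. COL3A1, a fibrillar collagen (NCBI Gene 1281, chr2:188974373-189012746), fell from 13.6, 21.3 and 26.5 to 1.3 (edgeR log2 fold change -4.00, standard error 0.58, Benjamini-Hochberg adjusted p = 0.0107). COL12A1, which lies along collagen fibrils, fell from 13.6, 5.04 and 18.5 to 0.10. Laminin chains such as LAMC1 stayed inside the 2D range, with 150.3, 189 and 318 in 2D cells and 165 in TS cells. LOXL2, which crosslinks collagen, fell from 28.6, 27 and 39.4 to 3.34. The plasminogen activator gene PLAU fell from 18.4, 38.1 and 44.2 to 3.04 and its relative PLAT from 6.11, 12.7 and 12.6 to 0.934. FSTL1 and ITGBL1, both secreted glycoproteins, fell from 18.5, 39.6 and 33 to 3.56 and from 22.9, 23.9 and 28 to 2.78. TNXB, a tenascin, fell from 5.01, 5.43 and 3.87 to 0.037, with the limit that part of its sequence is shared with TNXA. Other matrix genes outside the matrix lists rose, LUM as given above and the fibulin gene FBLN5 from 0.418, 0.25 and 0.34 to 5.89 (edgeR, Benjamini-Hochberg adjusted p = 0.00227).

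Of 25 counted integrin and focal adhesion genes, 2 were called lower, against 1.08% of all counted genes, 12 lay below the 2D range, against 20% of all, and 3 above it, with a median log2 difference of -0.20. Caveolin-1 (CAV1), the coat protein of caveolae, had 86.5, 121 and 122 in 2D cells and 24.1 in TS cells, with an edgeR adjusted p of 0.0517 after Benjamini-Hochberg adjustment. CAVIN1, its partner in caveolae, fell from 39.3, 40.5 and 31 to 5.28. Kindlin-2 (FERMT2), which activates integrins, was called lower with 25.7, 23.2 and 19.6 in 2D cells and 7.4 in TS cells. The integrin ITGA1 passed edgeR without being called by fold, with 0.95, 2.17 and 2.54 and 0.138. The most abundant integrin chain, ITGB1, had 175, 211 and 177 in 2D cells and 158 in TS cells, a log2 difference of -0.24. Among 16 actin cytoskeleton and SRF target genes, with a median of -0.01, the 1 gene called was the annexin ANXA3, which fell from 11, 30.7 and 15.5 to 0.403. Actin itself (ACTB) stayed inside the 2D range, with 1997, 1356 and 1629.8 and 1584.

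YAP/TEAD target genes had 5 of 18 counted members called lower and none higher, against 1.08% of all counted genes in each direction, and 4 of the 5 passed edgeR. The median log2 difference was -0.65, with an SD of 0.20 between the 2D libraries, with 10 genes below the 2D range and 3 above it (against 20% and 18.3% of all counted genes). AXL, a receptor tyrosine kinase (NCBI Gene 558, chr19:41219223-41261766), fell from 4.87, 4.95 and 7.33 to 0.040 (edgeR log2 fold change -7.11, standard error 0.68, Benjamini-Hochberg adjusted p = 0.00156). It was lower in A549 TS than in A549 2D cells too, with 75.8 in the 2D and 18.3 in the TS library. NT5E (CD73), which makes adenosine outside the cell, fell from 13.5, 17.3 and 12.9 to 2.27, and DLC1, a GTPase-activating protein, from 2.88, 3.59 and 4.71 to 0.141. ANKRD1, a nuclear ankyrin-repeat protein, fell from 2.11, 1.4 and 1.5 to 0.0908, and CRIM1 passed the fold rule alone, with 30.4, 24 and 43.8 and 10.1. The most widely used targets were mixed. CCN1 lay below the 2D range without being called, with 47.7, 35.6 and 62.1 in 2D cells and 18.9 in TS cells, and CCN2 lay inside it, with 50.3, 66.9 and 159 and 97.6. MYOF, the most abundant of the list, lay inside it with 164, 115 and 128 and 124. In A549 cells the median of the list was -1.35, and 12 of the 18 genes were more than 2-fold lower in the TS library. Among 13 genes induced by TGF-beta, with a median of -0.28, ID3, an inhibitor of bHLH factors, and SMAD6, an inhibitor of BMP signals, were called lower by fold alone. ID3 had 147, 50.1 and 40.5 in 2D cells and 17.7 in TS cells, and SMAD6 had 3.93, 2.75 and 2.32 and 0.588.

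**Figure D3:**
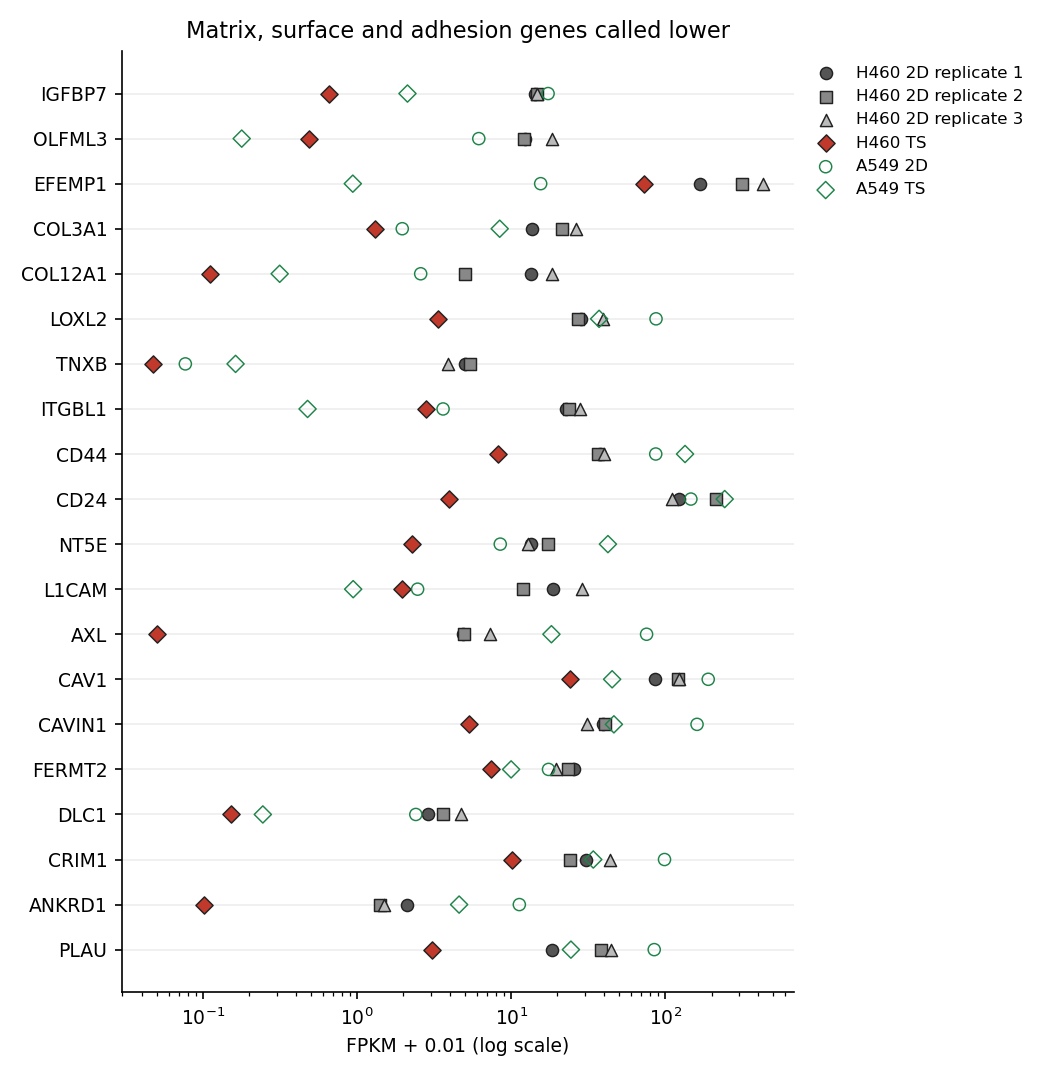
FPKM on a log scale, with 0.01 added so that values near 0 can be drawn, of 20 genes of matrix, surface and adhesion called lower in H460 TS cells, with 1 symbol for each library of H460 and A549. For each gene the red diamond of H460 TS cells lies left of the 3 grey 2D symbols, at 0.040 for AXL before the addition, while the open A549 TS diamond lies right of the open A549 2D circle for COL3A1, CD44, CD24, NT5E and TNXB.

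The surface markers CD24 and CD44 fell in TS cells. CD24, a mucin-like surface glycoprotein, fell from 123, 212 and 111 to 3.97 (edgeR log2 fold change -5.21, standard error 0.57, Benjamini-Hochberg adjusted p = 0.00275). Near-identical copies of CD24 exist in the genome, and how their reads were assigned is not stated. CD44, the hyaluronan receptor, fell from 37.6, 36.8 and 39.9 to 8.25 (edgeR, Benjamini-Hochberg adjusted p = 0.0288). These were the 2 genes called among 12 counted cancer stem cell markers, whose median log2 difference was -0.08 and whose most abundant gene, the aldehyde dehydrogenase ALDH3A1, had 475, 384 and 501 in 2D cells and 404 in TS cells. SOX2, a stem cell factor, had 0.789, 0.716 and 0.459 and 2.21 and was not called, and NANOG and POU5F1 were at 0 in all 4 libraries. The neural adhesion gene L1CAM fell from 18.6, 11.9 and 29 to 1.94. The cadherin gene CDH10 fell from 14.6, 24.1 and 21.1 to 2.88, and CDH11 was called lower by fold alone with 254, 318 and 473 in 2D cells and 73.6 in TS cells. The immune ligand gene CD274 (PD-L1) fell from 4.65, 8.72 and 6.98 to 0.932 and the receptor kinase gene ERBB2 from 3.89, 4.87 and 6.79 to 0.745.

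Among other genes with large falls, CRIP1, a LIM-domain protein, fell from 176, 239 and 303 to 17.5. The small heat shock protein gene CRYAB fell from 11.2, 9.01 and 10.8 to 0.396. RAB39B, a vesicle GTPase, fell from 6.1, 8.09 and 8.99 to 0.316, and the mitochondrial carrier gene SLC25A29 from 11.6, 11.7 and 13.3 to 1.4. IGFBP2, which binds insulin-like growth factors, fell from 35.7, 52.3 and 41 to 7.34. IGFBP3, of the same family, was called higher by fold alone, with 79.9, 455 and 480.3 in 2D cells and 1092 in TS cells.

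Of 13 counted epithelial junction and keratin genes, 1 was called higher and 1 lower, against 1.08% of all counted genes in each direction, with a median log2 difference of 0.01. KRT19 had 343, 407 and 372 in 2D cells and 138 in TS cells, and KRT7 had 3.25, 3.42 and 4.03 and 11.2, each called by fold alone. Of 9 counted EMT regulators and mesenchymal genes, with a median of -0.09, the calcium-binding S100A4 was called lower by fold alone, with 566, 1119 and 667 in 2D cells and 277 in TS cells. Vimentin (VIM), the intermediate filament of mesenchymal cells, was the most abundant, below the 2D range and not called, with 761, 887 and 964 and 525.

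Of 23 counted hypoxia genes, 3 were called higher by fold alone, against 1.08% of all counted genes, and 14 lay above the 2D range (against 18.3% of all), with a median log2 difference of 0.42. The summed FPKM of the list lay inside the 2D range. The ephrin gene EFNA1 had 4.75, 7.95 and 19.2 in 2D cells and 56 in TS cells, ANGPTL4, a lipase inhibitor, had 1.96, 9.89 and 7.39 and 24.6, and PFKFB4, which sets the level of a glycolytic activator, had 1.09, 2.91 and 2.24 and 7.5. The 2D libraries were themselves far apart for EFNA1 and ANGPTL4, and the edgeR adjusted p-values of the 3 genes were 0.198, 0.415 and 0.184 after Benjamini-Hochberg adjustment. Among 21 glycolysis genes, with a median of 0.14, the aldolase gene ALDOC was called higher, with 9.23, 21.8 and 21.2 in 2D cells and 72.6 in TS cells. The hexokinase gene HK1 was called lower, with 38.9, 39.9 and 44.3 and 11.8, and neither passed edgeR. GAPDH, the most abundant, stayed inside the 2D range.

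No gene of the cell cycle lists was called. Of 30 DNA replication genes, none was called and 25 lay inside the 2D range, with a median log2 difference of -0.01 and an SD of 0.38 between the 2D libraries. PCNA, the sliding clamp of the polymerase, had 218, 222 and 129 in 2D cells and 177 in TS cells. Of 22 mitosis genes, 16 lay inside the range, with a median of -0.18. The cyclin gene CCNB1 had 157, 152 and 85.8 in 2D cells and 110.3 in TS cells. Replicate 3 had the lowest mean of both lists. The mean log2(FPKM + 1) of the replication list was 5.07, 4.91 and 4.43 in 2D cells and 4.78 in TS cells, and that of the mitosis list 5.38, 5.55 and 4.95 and 5.13, so that TS cells lay below replicates 1 and 2. Without replicate 3 the medians were -0.19 and -0.38. In A549 cells they were -0.73 for replication and -0.87 for mitosis. Of 21 targets of p53, 13 lay above the 2D range (against 18.3% of all counted genes) and 1 was called higher (against 1.08% of all), the stress cytokine gene GDF15, with 34.1, 13.8 and 21.8 in 2D cells and 76.1 in TS cells. The list median was 0.35, and CDKN1A, the p21 inhibitor of cyclin kinases, had 33, 25.3 and 20.7 and 53.2. In A549 cells the median of the p53 list was -0.25, and GDF15 had 58.6 in the 2D and 28.3 in the TS library.

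Metallothioneins bind zinc and copper. Of 4 counted genes of the metallothionein and zinc list, 2 were called lower by fold alone (against 1.08% of all counted genes), with a median log2 difference of -1.15. MT2A had 86.9, 149 and 207 in 2D cells and 33.1 in TS cells, and MT1X had 10.7, 5.88 and 8.47 and 1.67. Metallothionein genes resemble each other, so reads may be shared between them. HEXA, a subunit of lysosomal hexosaminidase, fell from 3.17, 3.07 and 2.65 to 0.263 and was the 1 gene called of 22 lysosome and autophagy genes, whose median was -0.09 and whose most abundant gene, the protease CTSL, had 673, 921 and 676 and 534. CP was the 1 gene called of 10 iron genes, with a median of 0.04.

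No member was called in the other lists with counted genes. Retinoid metabolism had 6 of 7 counted genes above the 2D range (against 18.3% of all counted genes) and a median log2 difference of 0.54, with ALDH1A1, a retinal dehydrogenase, at 106, 176 and 134 in 2D cells and 195 in TS cells. The medians were 0.30 for 13 mitochondrially encoded genes (SD 0.52 between the 2D libraries), 0.25 for 12 Notch pathway genes and 0.25 for 21 ATF4 targets. For 17 chaperones and unfolded protein response genes the median was 0.12, for 19 MAPK feedback genes 0.10 and for 21 NRF2 targets 0.02. It was 0.00 for 17 immediate early genes (SD 0.80), -0.15 for 14 genes of MHC class I presentation and -0.16 for 17 interferon-stimulated genes.

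**Figure D4:**
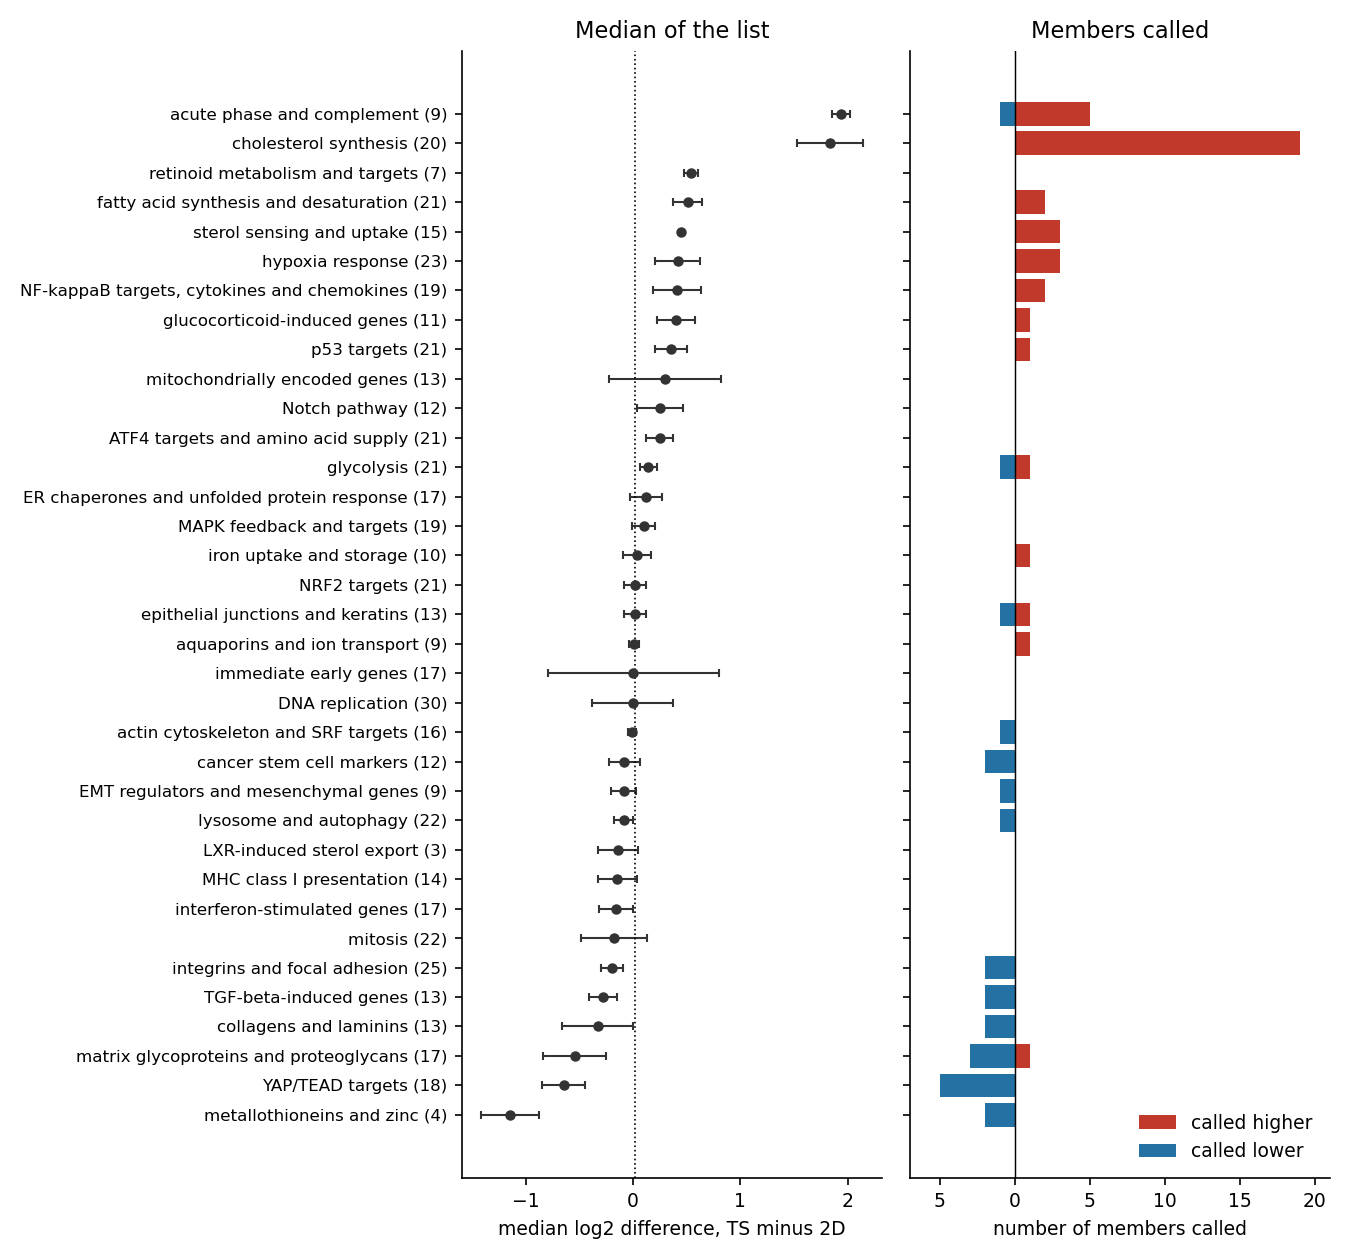
Left, the median log2 difference between the TS library and the 2D mean for each gene list drawn, with the number of counted members in brackets and bars for the SD of the list medians over the 3 2D libraries. The marker lists and the list of genes that the study named are left out. The dotted line is the median of all counted genes, 0.01. Right, the number of members called lower (blue, left of 0) and higher (red), with cholesterol synthesis at 19 of 20 and YAP/TEAD targets at 5 of 18.

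Genes that the study named were read in the same libraries. STC1, the secreted hormone stanniocalcin (NCBI Gene 6781), rose from 0.128, 0.838 and 0.483 to 11.1 (edgeR, Benjamini-Hochberg adjusted p = 0.0135). CHPF, which lengthens chondroitin chains, was called higher by fold alone, close to the threshold, with 12.3, 9.89 and 11 in 2D cells and 26 in TS cells. SEZ6L2, a surface protein (NCBI Gene 26470, chr16:29871159-29899550), lay above the 2D range without being called, with 3.21, 2.1 and 4.54 in 2D cells and 7.83 in TS cells. Against the mean of the 2D libraries its log2 difference was 1.08, past the 2-fold cut-off that the study states. Its edgeR log2 fold change was 1.23 with a standard error of 0.46 (Benjamini-Hochberg adjusted p = 0.591), and its difference from the nearest 2D library was smaller than that between 2D replicates 2 and 3. Its relatives SEZ6 and SEZ6L were at 0 in these 4 libraries. The chromatin genes EHMT1 and SMARCA4 and the ligand genes JAG2 and TGFB1 stayed inside the 2D range, and PAF1, of a transcription elongation complex, lay below it with 20.1, 20.5 and 18.4 in 2D cells and 17.8 in TS cells. The median of the 8 counted genes of this list was 0.22. The study named EHMT1, SMARCA4, PAF1, JAG2 and TGFB1 as upstream regulators, from the genes they control and not from their own RNA. It states that SMARCA4 and PAF1 RNA was not significantly altered. By flow cytometry it also found a larger share of SEZ6L2-positive cells in TS than in 2D cultures of H460 and A549.

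The same genes were read in A549 cells, with 1 TS and 1 2D library and so with no replicate check. Of the counted genes, 460 (3.96%) were more than 2-fold higher in A549 TS than in A549 2D cells and 256 (2.20%) more than 2-fold lower. Among the 126 genes called higher in H460 cells, 50 were more than 2-fold higher in A549 TS cells, 8 more than 2-fold lower, and 27 were under an FPKM of 1 in both A549 libraries. Among the 125 called lower, 24 were more than 2-fold lower in A549 TS cells and 15 more than 2-fold higher, and 27 were under an FPKM of 1 in both A549 libraries. The median log2 difference in A549 cells was 0.80 for the genes called higher, -0.06 for those called lower and -0.08 for all counted genes.

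For a comparison of the lines, H460 TS, A549 2D and A549 TS have 1 library each. The spread therefore comes from the H460 2D libraries alone, and the p-values below do not measure how TS or A549 cultures vary. The difference between the lines was examined with an edgeR interaction of culture and line over the 6 libraries, a test added after the data had been seen. It passed 80 of 11461 genes (0.698%), of which 15 had the higher TS effect in H460 and 65 in A549. Of the 251 genes called in H460 cells, 23 were more than 2-fold apart in the other direction in A549 cells. Not all of these passed the interaction, S100A4 and GDF15 among those that did not. COL3A1, NT5E, LGALS3 and ADAM19 are among the 23. COL3A1 had 1.95 in the A549 2D library and 8.42 in the TS library, and its interaction was -6.21 in log2 (edgeR, Benjamini-Hochberg adjusted p = 0.0133). For NT5E the A549 values were 8.49 and 42.5, and the interaction was -5.07 (adjusted p = 0.00749 by edgeR). CD44 had 86.9 and 135, with -2.94 (adjusted p = 0.0706 by edgeR), which did not pass. CD24 had 147 and 244, with -6.04 (adjusted p = 0.0103 by edgeR). Both were lower in H460 TS cells and higher in A549 TS cells than in the 2D cells of the same line. LGALS3, a lectin that binds galactosides, had 404, 591 and 508 in the H460 2D libraries and 109 in the TS library, against 16.1 and 90.4 in A549 cells (interaction -4.81, adjusted p = 0.014 by edgeR). ADAM19, a membrane protease, went the other way, with 2.16, 2.82 and 4.51 and 20.6 in H460 and 3.37 and 0.679 in A549 cells (interaction 4.89, adjusted p = 0.0285 by edgeR). FGG, with an interaction of 5.46 (adjusted p = 0.0133 by edgeR), and AXL, with -5.16 (adjusted p = 0.0201 by edgeR), moved in the same direction in both lines and by more in H460. For HMGCS1 the interaction was 1.99 (adjusted p = 0.261 by edgeR) and for AQP3 1.33 (adjusted p = 0.757 by edgeR), and neither passed.

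**Figure D5:**
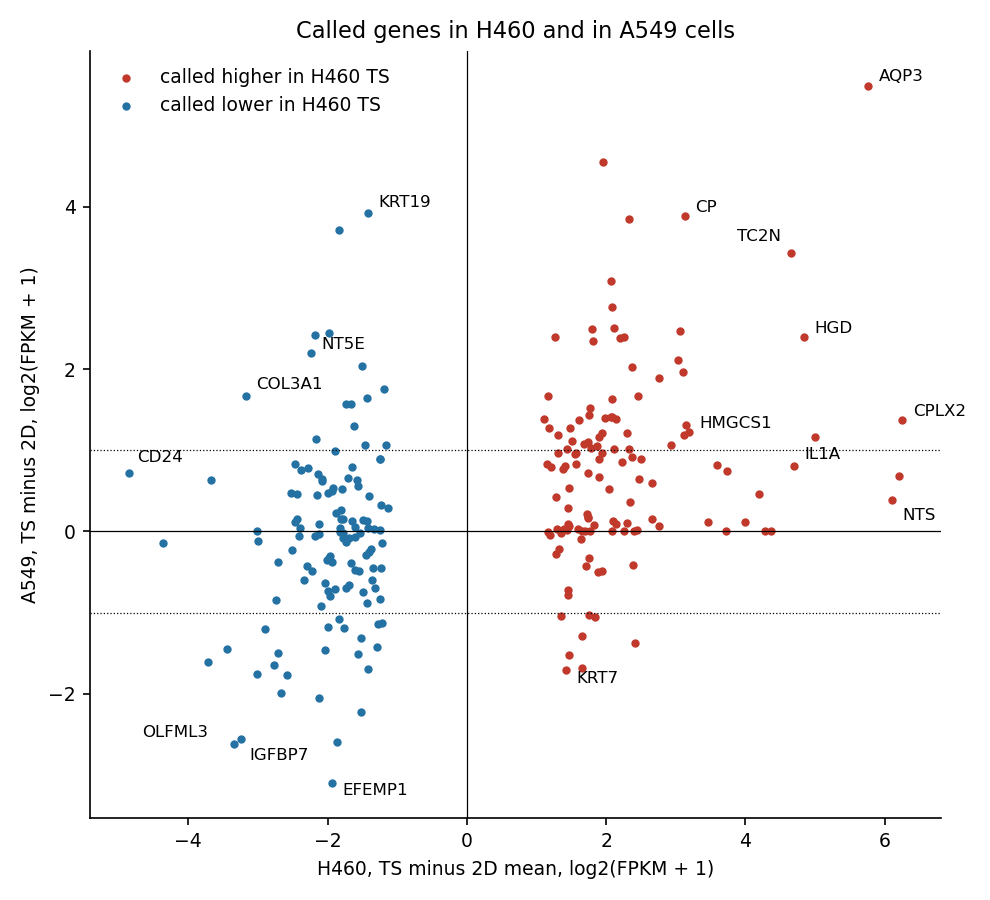
Each point is a gene called in H460 cells, with the H460 difference between the TS library and the 2D mean on the x axis and the A549 difference between its TS and 2D library on the y axis, both in log2(FPKM + 1). Dotted lines mark a 2-fold difference in A549; 50 red points lie above the upper line, and COL3A1, NT5E and KRT19 are among the 15 blue points that do so as well.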

How the data were processed

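The authors deposited 1 table of 46427 genes by NCBI Gene identifier and 10 libraries, with whole-number read counts, FPKM values and TPM values. The deposited read counts carry no normalization. The deposited FPKM values were normalized by the authors for transcript length and library size, and so were the deposited TPM values. The submitters' notes name bcl2fastq 1.8.4, Trimmomatic, HISAT2 2.1.0, StringTie 2.1.3b and GRCh38 without giving their roles. How shared reads were counted and the strand are not stated.

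Values were compared as log2(FPKM + 1) for genes with a mean FPKM of at least 1 over the 4 H460 libraries. A gene was called where TS lay more than 1 from each 2D library. Counts were tested with edgeR 4.0.16 (quasi-likelihood, TMM, Benjamini-Hochberg, 0.05) in R 4.3.3, with DESeq2 1.42.0 and limma 3.58.1 as alternatives. The edgeR step was also run on simulated counts, where it missed most of the genes changed 2-fold. Python 3.11.15, numpy 2.4.6, pandas 2.3.3 and matplotlib 3.10.9 were used for the rest. Positions and promoters are from RefSeq on GRCh38.p14. The comparison with TPM and the edgeR interaction between lines were added after seeing the data.

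Described are 42 gene lists with 738 genes, of which 40 have a counted member, and 13 genes were found under older symbols. Members and lists were chosen with earlier results of these data known. Genes were chosen for naming as the 20 farthest above and the 20 farthest below the nearest 2D library, up to 6 called genes and the most abundant gene of each list, and the genes that the study names. Some of them are not reported here. Every other gene named, such as PMVK, NTSR1, FOS, LGALS3 or SERPINA3, was chosen after its values were seen. XIST and Y-linked genes were counted and are not named.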

Additional observations from a re-analysis of the deposited data

Results flagged for a closer look

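COL3A1, NT5E and KRT19 were called in H460 cells, were more than 2-fold apart the other way in A549 cells and passed the edgeR interaction of culture and line over 6 libraries, a test added after the data had been seen. Other genes did so too, LGALS3 and ADAM19 among them. COL3A1 fell in H460 TS cells and was higher in A549 TS than in A549 2D cells, and its effect in H460 minus that in A549 was -6.21 in log2 (edgeR, Benjamini-Hochberg adjusted p = 0.0133). NT5E did the same, with -5.07 (adjusted p = 0.00749 by edgeR). KRT19 had FPKM values of 343, 407 and 372 and 138 in H460 cells and 3.57 and 68.3 in A549 cells, with -5.79 (adjusted p = 0.00749 by edgeR). A549 cells have 1 library per culture, and the spread in this test comes from the H460 2D libraries alone. KRT19 was called lower in H460 cells by the fold rule and did not pass the edgeR test within H460, so that its interaction rests mostly on the A549 libraries.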

How the results depend on the processing

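The fold counts of 126 higher and 125 lower genes ranged from 144 to 160 higher and from 146 to 213 lower genes when a 2D library was left out, which under this rule can only add genes. They were 88 and 126 where 2 of the 4 libraries had to reach an FPKM of 1. The lower count was 239 with a pseudocount of 0.1 and 237 against the mean of the 2D libraries. With TPM in place of FPKM, an alternative chosen after seeing the data that also counts more genes, the counts were 191 higher and 214 lower. Scaling by upper quartile or by TMM left 118 and 122 of the higher and 120 and 119 of the lower genes. The edgeR counts were 84 and 86. Their lower count was 222 with DESeq2 and 49 without a filter on low counts, and with 1 2D library left out the counts ranged from 62 to 123 higher and from 61 to 173 lower. The cause was not tested. With a library left out, YAP/TEAD targets had from 5 to 7 lower and matrix glycoproteins from 3 to 5. With a pseudocount of 0.1 the matrix list had 5 lower and against the 2D mean 7. With 2 of the 4 libraries at an FPKM of 1 or more, acute phase genes had 2 higher and a median of 0.18. Of the 40 list medians, 9 moved by at least the SD between the 2D libraries without replicate 1, 7 without replicate 2 and 10 without replicate 3. Of the 121 genes chosen for naming by rule, 119 were carried through these alternatives. Only 105 of them were covered where 2 of the 4 libraries had to reach an FPKM of 1. None of them that was called changed direction in an alternative that covered it. The alternatives were not run gene by gene for the others named. No paired analysis was possible because the TS library carries no replicate number. Depth limits genes near an FPKM of 0, where a few reads set the fold.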
